A study of Homo sapiens with 6 samples.

Results

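The nuclear-encoded subunits of the respiratory chain were read as 1 gene module in RNA-seq libraries of Ishikawa cells, an established human endometrial adenocarcinoma line that responds to estrogen. Members were taken by gene symbol: the NDUFA, NDUFB, NDUFC, NDUFS and NDUFV series of complex I, SDHA to SDHD of complex II, the UQCR genes of complex III, the COX4 to COX8 series of complex IV, and every symbol that begins with ATP5 for complex V. This gave 83 of the 26364 genes in the count table, with 37 in complex I, 4 in complex II, 8 in complex III, 14 in complex IV and 20 in complex V. A filter on low counts kept 77 of the 83 members (37, 4, 8, 10 and 18 by complex) and 15611 of all genes. Symbols are the older ones that the table uses, such as ATP5A1 for the gene now called ATP5F1A. The rule leaves out subunits with other names, such as COX4I1 and CYC1, and takes in a few genes that are not subunits, which are described separately.

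There were 3 lines: parental Ishikawa cells and 2 clones, named clone 1 and clone 2, in which ETV4 had been knocked out. ETV4 encodes an ETS-family transcription factor. Each line gave 1 poly(A)-selected library in vehicle, DMSO at 0.1%, and 1 in E2 (17β-estradiol) at 10 nM, so a knockout group held 2 clones and a parental group held 1 library. All cells had been moved to hormone-depleted medium before treatment. The labels give the treatment time as 1 h in the sample characteristics and as 8 h in the protocols. Each knockout is a clone and the parental side is 1 line, so genotype and line cannot be told apart, and a difference within 1 line has no replicate check. The labels name no replicate cultures of a line, so p-values measure only the spread between these libraries and clones.

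The respiratory chain passes electrons from NADH and succinate to oxygen in the inner mitochondrial membrane. Complexes I and II feed electrons to ubiquinone, complex III passes them to cytochrome c, complex IV reduces oxygen, and the proton gradient built on the way drives ATP synthesis by complex V. Most subunits are encoded in the nucleus, whereas a small catalytic set is encoded in mitochondrial DNA and was not analysed here. The promoters of the nuclear genes are known for sites of NRF1, of the ETS-family factor GABP and of estrogen-related receptors, whose binding core is shared with the estrogen receptor. Ishikawa cells are a common model of the estrogen response of the endometrium.

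Total counts ran from 28037392 to 36829479 per library. ETV4 was measured at 2.43 to 3.41 CPM (counts scaled to 1 common library total after TMM) in the 4 knockout libraries, against 19.7 and 28.4 CPM in the parental DMSO and E2 libraries. The parental DMSO library stood apart from the other 5: its TMM factor was 0.899 against 1.01 to 1.04, and its 50 most abundant genes held 14.1% of its counts against 10.4% to 11.3%. Summed levels of 6 epithelial markers (EPCAM, CDH1, KRT8, KRT18, KRT19 and MUC1) were 2928 CPM in that library and 1965 to 2750 CPM in the others. Of the markers of other cell types, DCN and LUM (stroma), PECAM1 and CDH5 (endothelium) and PTPRC and CD3E (immune cells) stayed at or below 0.171 CPM in every library. The summed levels ran from 46.2 to 85.0 CPM for 4 stromal, 1.61 to 3.96 CPM for 3 endothelial and 2.29 to 4.68 CPM for 3 immune markers, most of it COL1A1, VWF and CD68. In these bulk libraries, fewer cells of a type and less RNA per cell cannot be told apart.

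Promoters are shown for 5 members because they carry or lack the motifs for which respiratory chain genes are known, and because results given further on turn on their transcripts. Sequences are from RefSeq (GRCh38.p14), 250 bases before to 50 after the gene's start, given 5′ to 3′ on the gene's strand, and 66 of the 83 members had an entry. Capitals mark matches, on either strand, to an ETS motif (CCGGAAGT), an NRF1 motif (GCGCATGC) or an estrogen-related receptor core (AAGGTCA). SDHD (chr11:112086623-112086922, plus strand) and COX5B (chr2:97645812-97646111, plus strand) are the 2 members with both an ETS and an NRF1 match. COX6A1 (chr12:120437863-120438162, plus strand) has 2 NRF1 matches, SDHB (chr1:17053983-17054282, minus strand) has an NRF1 match and a receptor core, and NDUFV1 (chr11:67606686-67606985, plus strand) has none of the 3.
SDHD: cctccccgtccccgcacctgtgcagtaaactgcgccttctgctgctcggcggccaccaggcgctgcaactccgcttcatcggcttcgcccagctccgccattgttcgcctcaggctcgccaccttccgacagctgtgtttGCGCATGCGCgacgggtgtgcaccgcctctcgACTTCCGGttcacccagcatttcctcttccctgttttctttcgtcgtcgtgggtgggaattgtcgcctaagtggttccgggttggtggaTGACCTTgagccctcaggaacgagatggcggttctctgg
COX5B: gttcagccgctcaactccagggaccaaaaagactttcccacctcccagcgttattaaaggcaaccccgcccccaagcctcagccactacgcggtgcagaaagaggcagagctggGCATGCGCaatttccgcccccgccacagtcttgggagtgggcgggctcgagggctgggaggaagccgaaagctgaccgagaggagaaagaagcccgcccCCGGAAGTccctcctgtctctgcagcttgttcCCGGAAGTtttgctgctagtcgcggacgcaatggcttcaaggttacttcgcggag
COX6A1: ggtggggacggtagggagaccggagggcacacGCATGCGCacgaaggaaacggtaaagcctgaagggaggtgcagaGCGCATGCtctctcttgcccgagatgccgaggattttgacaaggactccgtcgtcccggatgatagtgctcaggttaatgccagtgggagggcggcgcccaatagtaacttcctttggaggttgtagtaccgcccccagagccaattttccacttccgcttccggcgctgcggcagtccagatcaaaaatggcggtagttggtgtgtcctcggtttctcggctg
SDHB: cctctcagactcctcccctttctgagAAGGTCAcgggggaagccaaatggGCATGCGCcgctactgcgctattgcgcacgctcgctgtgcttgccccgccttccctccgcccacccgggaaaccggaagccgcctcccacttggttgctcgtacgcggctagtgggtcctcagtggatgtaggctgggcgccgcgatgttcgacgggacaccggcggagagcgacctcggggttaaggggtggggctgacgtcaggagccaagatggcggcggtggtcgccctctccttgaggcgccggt
NDUFV1: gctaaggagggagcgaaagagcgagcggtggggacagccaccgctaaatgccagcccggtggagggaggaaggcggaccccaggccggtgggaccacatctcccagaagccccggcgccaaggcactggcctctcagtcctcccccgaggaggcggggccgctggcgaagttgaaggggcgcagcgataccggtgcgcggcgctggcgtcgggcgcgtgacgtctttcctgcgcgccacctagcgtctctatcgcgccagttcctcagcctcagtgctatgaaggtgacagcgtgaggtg

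Positions counted from the start site place the first base of the ETS matches at -37 and -5 in COX5B and at -78 in SDHD, where the match lies on the opposite strand. The NRF1 match of SDHD reads on both strands, at -110 and -108, and was counted once per strand. No member promoter had overlapping matches of different motifs. The ETS letters were found in 9 of 66 member promoters (13.6%), against 4.44% of 27305 promoters of the same length and 6.19% of 15843 promoters of protein-coding genes. The NRF1 letters were found in 13 of 66 (19.7%, against 3.27% and 4.26%), and the receptor core in 8 of 66 (12.1%, against 3.97% and 3.13%). A match describes letters in this window and is not a measured binding site.

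Transcripts of the module were most abundant in the parental DMSO library. Members held 1.43% of all counts there, and 0.968% to 1.13% in the other 5 libraries. Of the 77 members kept, 72 had their highest CPM in that library, where 31.7% of all genes kept did: 35 of 37 in complex I, 3 of 4 in complex II, 8 of 8 in complex III, 9 of 10 in complex IV and 17 of 18 in complex V. With each gene's log2 CPM set against its own mean over the 6 libraries, the median member stood at 0.53 in parental DMSO and at -0.14 in parental E2. The medians were 0.0041 and -0.11 in clone 1 (DMSO and E2) and -0.26 and -0.04 in clone 2 (DMSO and E2). The median over all genes lay between -0.0082 and 0.012 in every library. All 5 complexes had their lowest median in clone 2 DMSO, between -0.25 and -0.29. Scaled by total counts, which lowers the parental DMSO library against the rest, 65 of 77 members had their highest level in it, against 20.7% of all genes.

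**Figure D1:**
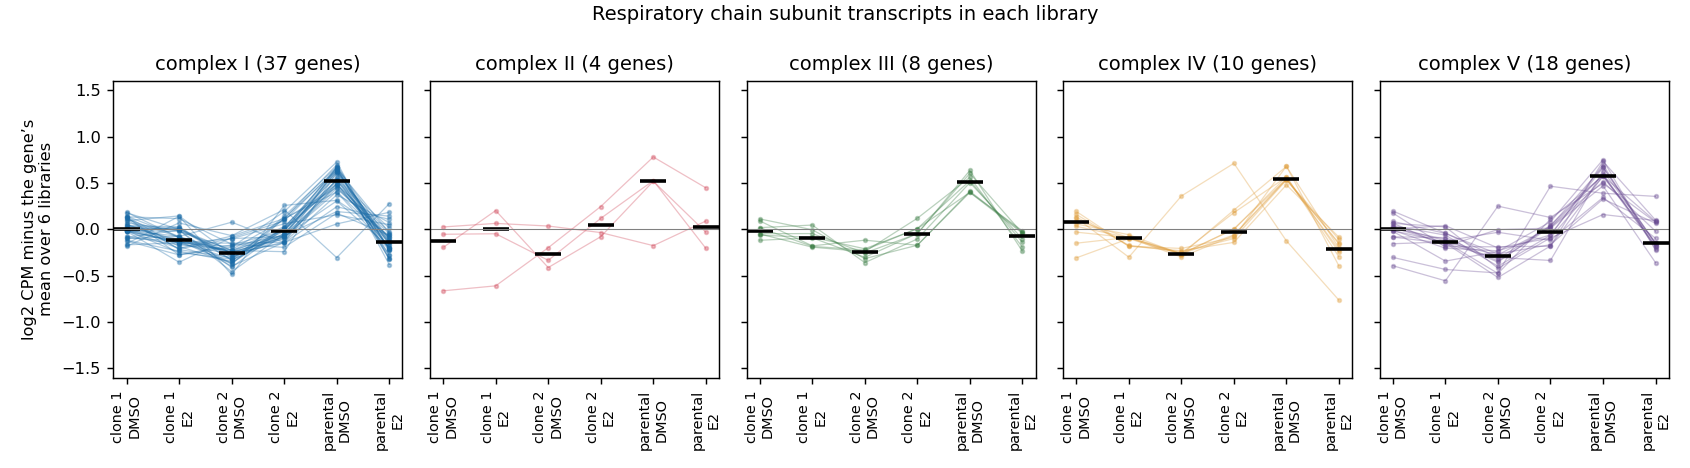
Level of each respiratory chain subunit transcript in each library, as log2 CPM minus the gene's own mean over the 6 libraries (y axis), with 1 panel per complex and the libraries along the x axis. Each line is 1 gene and black bars are medians. Medians of all 5 complexes are highest in parental DMSO, between 0.51 and 0.58.

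E2 treatment went with lower subunit transcripts in the parental line, slightly lower ones in clone 1 and higher ones in clone 2. The parental line had a median log2 change from DMSO to E2 of -0.67, clone 1 of -0.12 and clone 2 of 0.24, while the medians over all genes were 0, -0.00022 and 0.013. In the parental line 74 of 77 members were lower and 46 were at least 1.5-fold lower, a share of 59.7% against a background of 18.8% of all genes. With each library's trend over GC content and transcript length removed, a correction chosen after seeing the data, the parental median became -0.28, and 65 members were lower and 12 (15.6%) at least 1.5-fold lower, near the 12.0% of all genes. In clone 1, 57 of 77 were lower but 0 reached 1.5-fold (background 6.93%). In clone 2, 69 of 77 were higher, 2 of them at least 1.5-fold (NDUFA11 and ATP5E; background 9.12%), and 0 were 1.5-fold lower (background 7.48%). Members lower with E2 in the parental line and higher in both clones numbered 17 (22.1%), against 6.51% of all genes. Lower in all 3 lines were 6 of 77 members, against 3934 of the 15611 genes kept.

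By complex, the parental medians were -0.66 for complex I, -0.44 for complex II, -0.63 for complex III, -0.73 for complex IV and -0.74 for complex V. At least 1.5-fold lower were 20 of 37 members of complex I, 1 of 4 of complex II, 5 of 8 of complex III, 9 of 10 of complex IV and 11 of 18 of complex V. With the GC content and length trends removed, these counts became 5, 1, 0, 1 and 5 for complexes I to V, and the medians became -0.26, 0.10, -0.40, -0.26 and -0.29, so that of complex II turned in direction. In clone 2 the medians were higher in every complex, from 0.22 (complex III) to 0.39 (complex II). In clone 1 they were -0.12, 0.05, -0.07, -0.15 and -0.13 for complexes I to V, so all 4 members of complex II were higher and most members of the others were lower. The 5 complexes thus ordered differently in each line, and with 1 library per line and treatment that order has no replicate check. Total-count scaling moved the median of all genes in the parental line to 0.17, and on that scale the members' median was -0.51 with 28 of 77 at least 1.5-fold lower, against 11.7% of all genes.

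**Figure D2:**
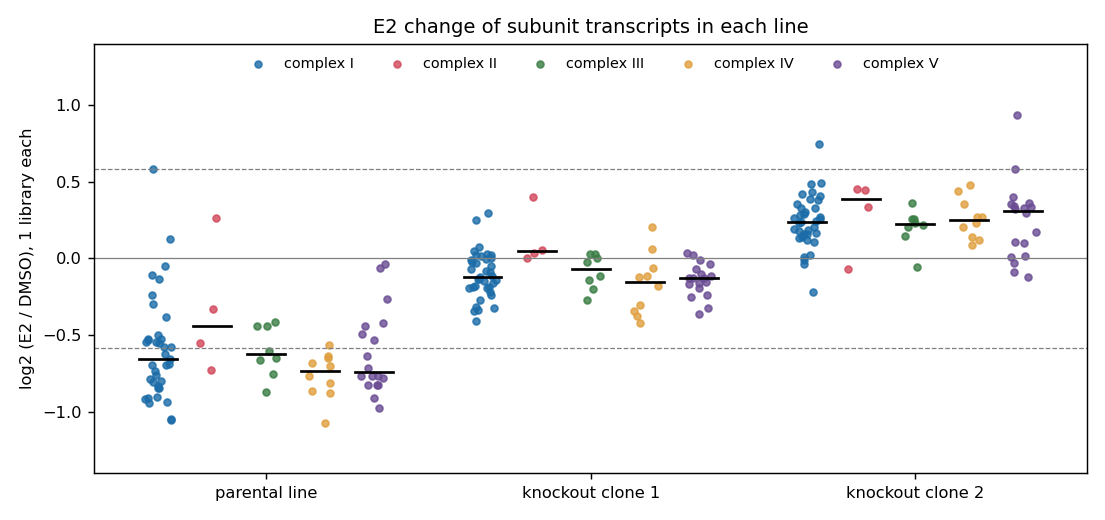
Log2 ratio of E2 to DMSO (y axis) for each of the 77 members in each of the 3 lines (x axis), 1 library per treatment. Points are genes coloured by complex, black bars are medians and dashed lines mark 1.5-fold. Most points lie below 0 in the parental line (74 of 77) and above 0 in clone 2 (69 of 77).

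Across all lines together, no member passed the test of E2. By edgeR's quasi-likelihood test, with p-values Benjamini-Hochberg adjusted over all genes, 0 of 77 members were under the threshold of 0.05, where 1.13% of all genes were. Only NDUFV1 had an unadjusted p under 0.05 (log2 change 0.37, SE 0.13, adjusted p = 0.19), where 20.4% of all genes did, and it was higher with E2 in 3 of 3 lines. DESeq2 called 0 members and 7.14% of all genes, with an unadjusted p under 0.05 in 2 members, and limma-voom called 0 members and 1.11% of all genes, with such a p in 1. Without clone 2 the test called 14 members, all lower with E2, where 8.88% of all genes tested were called lower. Those 14 were NDUFA2, NDUFA3, NDUFA4, NDUFA6, NDUFA7, NDUFA13, NDUFB1, NDUFB7, NDUFB11, NDUFC2, NDUFS5, COX6A1, ATP5G2 and ATP5J2, with log2 changes between -0.50 and -0.73. That fit has 1 DMSO and 1 E2 library of each of 2 lines, so it leaves 1 residual degree of freedom. Without clone 1, without the parental DMSO library, or in the clones alone, 0 members were called. For the fits without clone 1 and without the parental DMSO library, the share of all genes called is not given here. In the clones alone (n = 2 clones per treatment) edgeR's quasi-likelihood test called 0 of 76 members, where 0.329% of genes were called, and 1 member had an unadjusted p under 0.05.

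That member was NDUFA11, an accessory subunit at the junction of the complex I arms. It was measured at 305 CPM in clone 1 DMSO and 375 CPM in clone 1 E2, 243 and 407 CPM in clone 2, and 423 and 325 CPM in the parental line. Both clones were higher with E2 and the parental line was lower. With line as a block, each E2 library is set against the DMSO library of its own line. In that fit of the clones alone NDUFA11 was the 1 member called, and it was higher with E2. Its adjusted p was 0.00965 in edgeR's quasi-likelihood test, where 15% of genes were called in either direction. That paired fit has 1 residual degree of freedom, and the prior that edgeR estimated was infinite, so a gene's own spread does not enter its p-value.

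The difference between the E2 changes of the clones and of the parental line was tested as an E2-by-genotype term. Without the block, 0 of 77 members were called (edgeR's quasi-likelihood test; lowest adjusted p = 0.617), 0% of all genes were called, and 40 members (51.9%) had an unadjusted p under 0.05, against 7.62% of all genes. DESeq2, which gave an adjusted p to 47 members and 2900 genes, called 2 members (NDUFB5 and COX7B) and 26 genes. In DESeq2 43 members (55.8%) had an unadjusted p under 0.05, against 7.7% of all genes. Limma-voom called 0 members and 0% of genes, with 43 members at an unadjusted p under 0.05, against 7.24% of all genes. With line as a block, edgeR called 48 of 77 members, all with a higher E2 change in the clones, where 8.9% of all genes were called in that direction. The 48 were 24 of 37 in complex I, 2 of 4 in complex II, 5 of 8 in complex III, 7 of 10 in complex IV and 10 of 18 in complex V. The members' median for this term was 0.75 on the log2 scale, against -0.04 for all genes. The term rests on a single parental pair of libraries, and the paired fit leaves 1 degree of freedom. The prior that edgeR estimated was infinite, so these p-values use a spread shared by genes of like abundance and not each gene's own. With each library's trend over GC content and transcript length removed, the paired fit called 17 members, where 4.29% of genes were called higher. Of the 17, 15 were among the 48. The prior that edgeR estimated for the fit with the trends removed is not given here. The 17 were NDUFA4, NDUFA9, NDUFA11, NDUFA13, NDUFB1, NDUFB5, NDUFB7, NDUFB9, NDUFC2, SDHC, UQCRC2, COX7B, ATP5F1, ATP5G2, ATP5I, ATP5J2 and ATP5S. Other members named further on as passing the paired test did not pass with the trends removed.

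**Figure D3:**
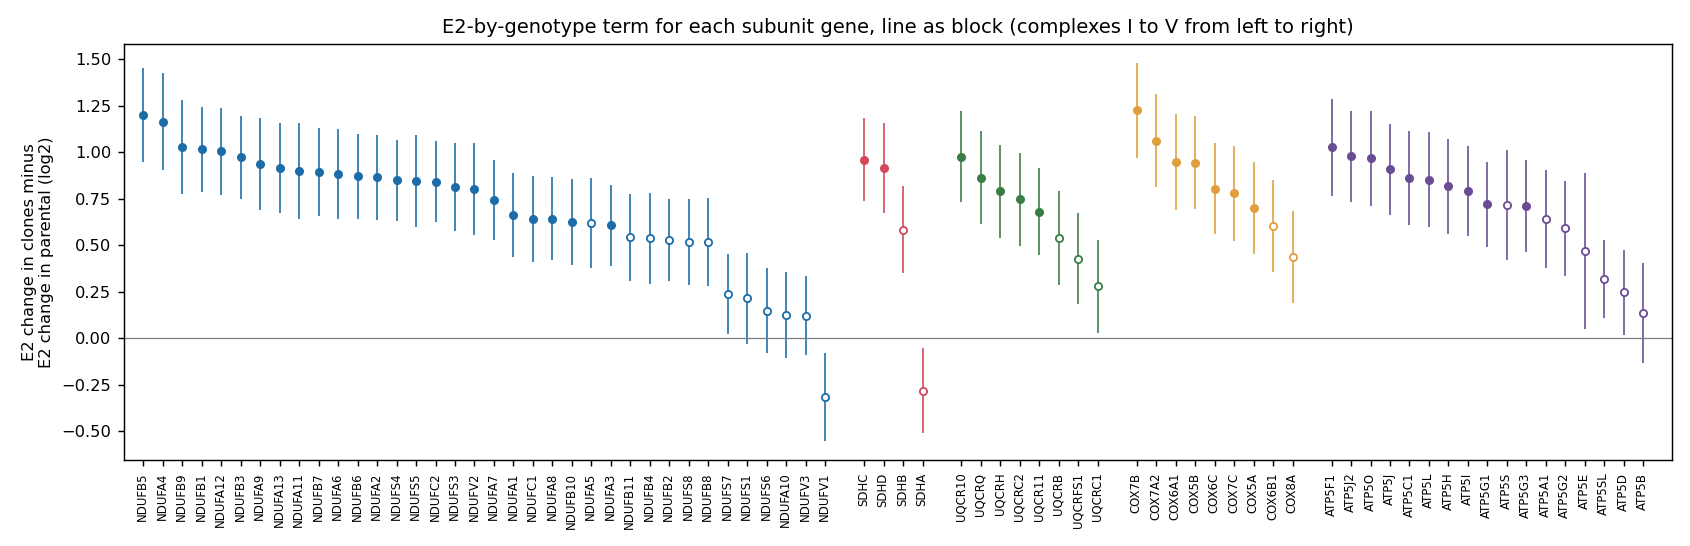
E2 change in the clones minus E2 change in the parental line (y axis, log2, line as a block) for 74 members with a mean of at least 2 CPM, ordered within complexes I to V along the x axis. Bars are standard errors, filled points have an adjusted p under 0.05, and open points do not. Filled points number 48 and all lie above 0, whereas NDUFV1 and SDHA lie below it.

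In DMSO, members stood lower in each clone than in parental cells, while the E2 libraries of the 3 lines lay close together. The median log2 difference to the parental DMSO library was -0.51 for clone 1 and -0.81 for clone 2. At least 1.5-fold lower were 26 of 77 members in clone 1 (background 8.09%) and 61 of 77 in clone 2 (background 19.2%). With the GC content and length trends removed, the medians became -0.27 and -0.36, and 8 members (10.4%, against 5.29% of all genes) were that much lower in clone 1 and 18 (23.4%, against 11.4%) in clone 2. Total-count scaling gave 8 members in clone 1 (10.4%, against 4.35%) and 41 in clone 2 (53.2%, against 10.9%). Among the E2 libraries the medians were 0.0050 and 0.09, with 3 members at least 1.5-fold lower in clone 1 (SDHB, ATP5E and ATP5EP2; background 7.29%) and 0 in clone 2 (background 6.78%). These differences in DMSO, the parental E2 change and the E2-by-genotype term share the parental DMSO library. In the test of the knockout effect over both treatments, edgeR called 0 of 77 members (background 0.327%), with 5 at an unadjusted p under 0.05, where 11.4% of all genes were. DESeq2 called 0 (2.95% of all genes), with 7 at such a p, where 12% of all genes were. Limma-voom called 0 (0.365% of all genes), with 4 at such a p, where 11.3% of all genes were. Without clone 2, 1 member (SDHB) was called lower, where 2.28% of genes were, and without the parental DMSO library 0 were called with 0 at an unadjusted p under 0.05.

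**Figure D4:**
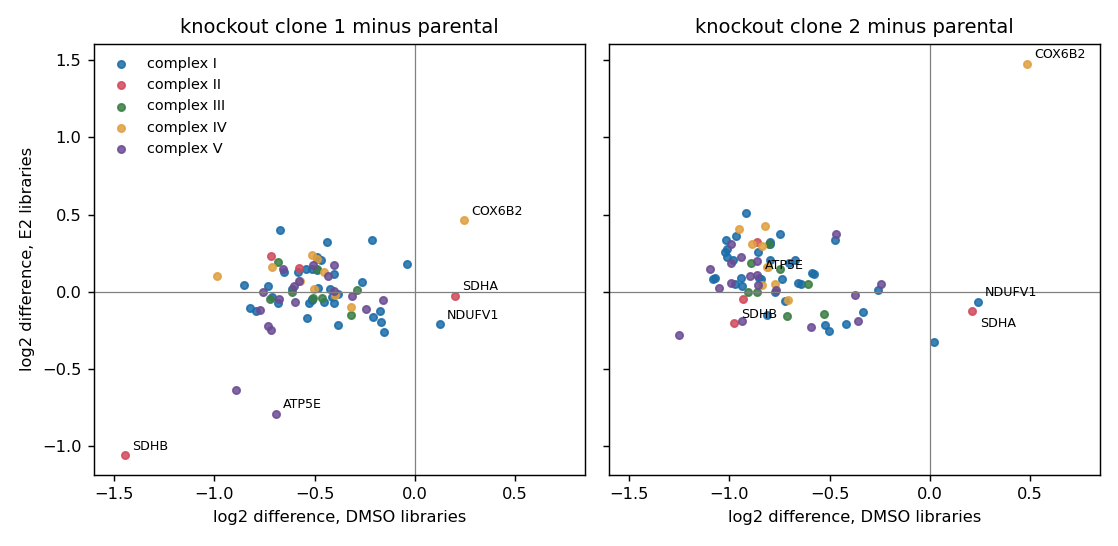
Log2 difference between each knockout clone and the parental line in the DMSO libraries (x axis) and in the E2 libraries (y axis) for 77 members coloured by complex, with 5 labelled. The axes share no library. Most points lie left of 0 (74 of 77 for clone 1 and 73 of 77 for clone 2) and are spread around 0 on the y axis, where SDHB lies lowest in clone 1 at -1.06.

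Complex I takes electrons from NADH. NDUFV1 and NDUFV2 belong to its NADH-oxidising tip, NDUFS1 holds iron-sulphur clusters next to it, and NDUFS3, NDUFS7 and NDUFS8 belong to the arm that leads to ubiquinone. NDUFV1, which binds NADH and FMN, was measured at 83.6 and 99.5 CPM in clone 1 (DMSO and E2), 90.4 and 110 CPM in clone 2, and 76.7 and 115 CPM in the parental line. It was therefore lowest in parental DMSO and highest in parental E2. NDUFV2, its partner, was highest in parental DMSO, and was measured at 123 and 130 CPM in clone 1, 98.4 and 132 CPM in clone 2, and 188 and 128 CPM in the parental line. The E2-by-genotype term, with line as a block in edgeR's quasi-likelihood test, was -0.32 (SE 0.24, adjusted p = 0.395) for NDUFV1 and 0.80 (SE 0.25, adjusted p = 0.0131) for NDUFV2.

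NDUFS3 followed the module, with 91.8 and 93.6 CPM in clone 1 (DMSO and E2), 73.8 and 90.1 CPM in clone 2, and 134 and 84.7 CPM in the parental line. NDUFS1 differed little with E2 in any line, at 133 and 131, 108 and 106, and 137 and 116 CPM in the same order. NDUFS7 and NDUFS8 had parental E2 changes of -0.30 and -0.55. Of the core genes named above, NDUFS3 and NDUFV2 passed the paired test of the term. Neither passed it with the GC content and length trends removed.

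Among accessory subunits, NDUFC2, of the membrane arm, had the lowest fitted E2 change of complex I over all lines (log2 -0.38, SE 0.21, adjusted p = 0.341 in edgeR's test). It was measured at 33.1 and 29.2 CPM in clone 1, 25.0 and 24.7 CPM in clone 2, and 44.9 and 23.4 CPM in the parental line. NDUFB6, another membrane-arm subunit, had the lowest fitted knockout difference of complex I (log2 -0.48, SE 0.20, adjusted p = 0.437 in edgeR's test), with 72.3 and 73.5, 65.2 and 81.9, and 128 and 79.2 CPM in the same order. The largest paired term of complex I belonged to NDUFB5, also of the membrane arm and chosen after its values were seen, with 202 and 205 CPM in clone 1, 164 and 199 CPM in clone 2, and 322 and 155 CPM in the parental line. Its parental E2 library was the lowest of the 6 and its parental DMSO library the highest. With the GC content and length trends removed, the paired term was 0.54 (SE 0.16) for NDUFB5 and 1.15 (SE 0.19) for NDUFA9. NDUFA10, NDUFS6 and NDUFV3, likewise chosen afterwards, showed the module's pattern least, with parental E2 changes of -0.05, -0.14 and -0.11.

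Complex II oxidises succinate and is also an enzyme of the citrate cycle. SDHA, its flavoprotein, was measured at 76.4 and 78.5 CPM in clone 1 (DMSO and E2), 76.9 and 73.3 CPM in clone 2, and 66.4 and 79.8 CPM in the parental line, so that parental DMSO was the lowest library. SDHC, 1 of the membrane anchors, was measured at 53.7 and 53.9, 44.2 and 60.5, and 80.2 and 48.3 CPM in the same order. SDHD, the other anchor, was measured at 102 and 134, 87.5 and 110, and 167 and 114 CPM. Both anchors were highest in parental DMSO and passed the paired test of the E2-by-genotype term, by edgeR's quasi-likelihood test. The term was 0.96 (SE 0.22, adjusted p = 0.000762) for SDHC and 0.92 (SE 0.24, adjusted p = 0.00354) for SDHD. SDHA did not pass that test (-0.28, SE 0.23, adjusted p = 0.441). With the GC content and length trends removed, SDHC still passed and SDHD did not.

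SDHB, the iron-sulphur subunit between SDHA and the anchors, had the lowest fitted knockout difference of all 77 members over both clones and treatments. In clone 2 alone other members stood lower against the parental line, such as ATP5G1 (-1.25 in DMSO and -0.28 in E2). It was measured at 50.8 and 52.7 CPM in clone 1 (DMSO and E2), 70.1 and 95.5 CPM in clone 2, and 138 and 110 CPM in the parental line. All 4 knockout libraries lay below both parental libraries. The clones held 60.5 ± 13.7 CPM in DMSO and 74.1 ± 30.2 CPM in E2 (SD, n = 2). Against the parental library of the same treatment, the log2 difference was -1.44 and -1.06 in clone 1 and -0.98 and -0.20 in clone 2. The fitted knockout difference of -0.89 (SE 0.27) did not pass edgeR's quasi-likelihood test with all libraries (adjusted p = 0.313). It became -1.25 without clone 2, where each genotype has 1 line whose DMSO and E2 libraries are not replicates of the genotype. Clone 1 was lower than clone 2 in both treatments.

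Complex III is built on the core proteins UQCRC1 and UQCRC2, the Rieske iron-sulphur protein UQCRFS1 and small subunits. UQCRC1 was measured at 184 and 153 CPM in clone 1 (DMSO and E2), 159 and 153 CPM in clone 2, and 229 and 169 CPM in the parental line, and was lower with E2 in 3 of 3 lines (fitted log2 change -0.26, SE 0.13, adjusted p = 0.307 in edgeR's test). UQCRC2 was measured at 158 and 161, 122 and 145, and 221 and 145 CPM in the same order. UQCRFS1 was measured at 129 and 119, 95.9 and 106, and 157 and 118 CPM. With E2, UQCRC1 was lower and UQCRC2 higher in both clones, and parental DMSO was the highest library for all 3 genes.

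UQCRH, the hinge protein that meets cytochrome c, had the lowest fitted knockout difference of complex III (log2 -0.44, SE 0.20, adjusted p = 0.453 in edgeR's test), with 179 and 183 CPM in clone 1, 158 and 189 CPM in clone 2, and 296 and 189 CPM in the parental line. Its E2 levels lay close together in the 3 lines, and the parental DMSO library stood above all others. UQCRB, which lies near the quinone site, was measured at 203 and 200, 183 and 213, and 280 and 206 CPM. Paired calls in this complex were UQCRC2, UQCRH, UQCRQ, UQCR10 and UQCR11. Of these, only UQCRC2 was also called with the GC content and length trends removed.

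In complex IV, which hands electrons to oxygen, all 9 members measured above 1 CPM were highest in parental DMSO and lower with E2 in the parental line, by log2 differences of -0.56 (COX8A) to -1.08 (COX6A1). COX6A1, the broadly expressed form of subunit VIa, was measured at 362 and 279 CPM in clone 1 (DMSO and E2), 275 and 299 CPM in clone 2, and 508 and 241 CPM in the parental line. COX5B, a zinc-binding subunit on the matrix side, was measured at 158 and 146, 126 and 152, and 226 and 124 CPM in the same order. COX7B, a small membrane subunit, was measured at 200 and 231, 205 and 286, and 396 and 215 CPM. In parental DMSO each of the 3 stood above all other libraries, and for COX6A1 and COX5B the parental E2 library was the lowest of the 6.

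COX7B had the largest paired E2-by-genotype term of all 77 members (1.22, SE 0.26, adjusted p = 0.000147 in edgeR's quasi-likelihood test). With the GC content and length trends removed, COX7B had the smallest term of the 17 members then called (0.53, SE 0.17). The largest of those 17 was that of SDHC (1.24, SE 0.18). COX5A, on the matrix side, was measured at 141 and 129, 112 and 132, and 200 and 128 CPM. COX6C was measured at 121 and 116, 103 and 124, and 180 and 111 CPM. COX8A was measured at 158 and 125, 121 and 129, and 198 and 134 CPM, and with COX6B1 was 1 of the 2 well-measured members of the complex that missed the paired test (adjusted p = 0.227 and 0.0785). NDUFA4 carries a complex I name but is now placed in complex IV, and it was among the members with the largest parental change. Its levels were 362 and 326 CPM in clone 1, 346 and 451 CPM in clone 2, and 654 and 316 CPM in the parental line.

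Complex V couples the F1 catalytic head to a membrane rotor. ATP5B, the catalytic beta subunit, was measured at 1212 and 1243 CPM in clone 1 (DMSO and E2), 1052 and 1134 CPM in clone 2, and 1351 and 1291 CPM in the parental line. ATP5A1, the alpha subunit that alternates with it in the head, was measured at 779 and 661, 550 and 538, and 1053 and 615 CPM in the same order. The parental E2 change was -0.06 for ATP5B and -0.78 for ATP5A1, so the partners of the head differed in size of change. ATP5C1, the gamma shaft, was measured at 204 and 198, 146 and 183, and 289 and 176 CPM. ATP5D, the delta subunit, was measured at 80.1 and 73.2, 62.7 and 67.3, and 94.7 and 78.9 CPM, a parental change of -0.26.

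ATP5O, which ties the head to the peripheral stalk, was measured at 236 and 225 CPM in clone 1, 201 and 256 CPM in clone 2, and 400 and 225 CPM in the parental line. It passed the paired test of the E2-by-genotype term (0.97, SE 0.26, adjusted p = 0.00321 in edgeR's quasi-likelihood test), as did ATP5C1 (0.86, SE 0.25, adjusted p = 0.00885). Neither ATP5O nor ATP5C1 passed with the GC content and length trends removed. The rotor subunit c is encoded by 3 genes whose mature proteins are the same. ATP5G1 was measured at 75.4 and 67.2, 51.9 and 65.8, and 124 and 79.8 CPM, ATP5G2 at 277 and 215, 215 and 216, and 366 and 214 CPM, and ATP5G3 at 126 and 125, 105 and 135, and 190 and 131 CPM. ATP5G1 had the lowest fitted knockout difference of complex V (log2 -0.63, SE 0.21, adjusted p = 0.353 in edgeR's test) and stayed below the parental line in both clones with E2. ATP5G2 had the lowest fitted E2 change of the complex (log2 -0.38, SE 0.18, adjusted p = 0.271).

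ATP5E, the epsilon subunit, had only 42 to 97 counts per library. Reads that match both ATP5E and the near-identical copy ATP5EP2 (26 to 57 counts) could have been dropped or split in counting, so both are uncertain. ATP5S, a coupling factor, and ATP5SL, now regarded as a complex I assembly factor, are not subunits of the synthase. ATP5S was measured at 7.31 and 6.14 CPM in clone 1, 6.97 and 7.04 CPM in clone 2, and 9.68 and 5.42 CPM in the parental line, and ATP5SL at 38.8 and 34.8, 37.1 and 35.0, and 48.2 and 35.5 CPM.

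Tissue-restricted isoforms were at or near 0. COX6A2 (heart and muscle), COX7B2 and the read-through gene ATP5J2-PTCD1 had 0 counts in every library, which allows up to 3 counts each for counting error alone. COX7A1, the muscle form of subunit VIIa, had 0 to 5 counts, COX8C 0 to 4 and ATP5L2 3 to 5. COX6B2, known from testis, passed the filter with 4 to 12 counts, and its log2 differences, such as 1.48 between clone 2 and the parental line in E2, rest on those counts.

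Subunit genes are short, and the parental E2 change went with length in all genes. The median coding length was 420 bases for 76 members and 1407 bases for 13860 genes. The 55 members under 600 bases had a median parental E2 change of -0.70, and 38 (69.1%) were at least 1.5-fold lower, where 45.4% of all 1708 genes of that class were. For 13 members of 600 to under 1200 bases the median was -0.55, with 46.2% against 25.4% of all genes. For 8 members of 1200 bases or more it was -0.15, with 25% against 9.60%. NDUFV1 and SDHA, both higher with E2 in the parental line, are in that longest class. Spearman's rho between coding length and parental E2 change, as a description across genes of the same 2 libraries, was 0.31 for the 76 members and 0.43 for all genes.

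**Figure D5:**
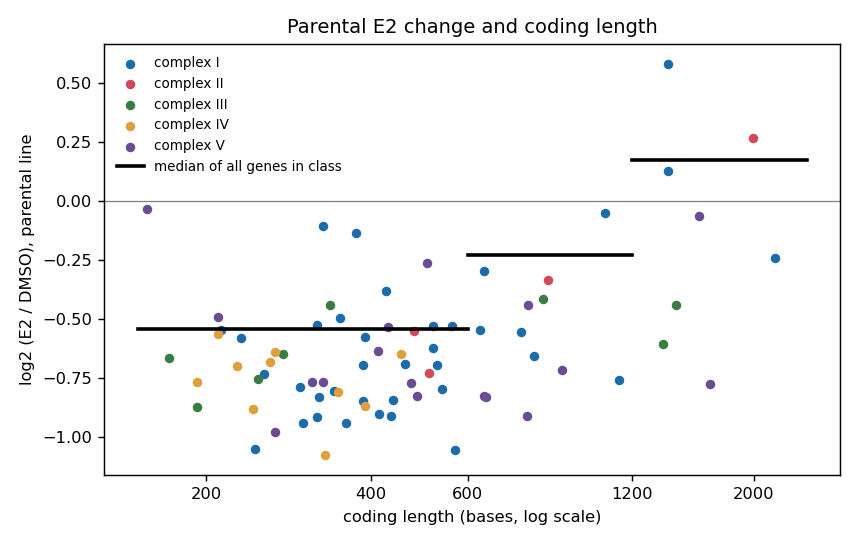
Parental E2 change (y axis, log2 ratio of 1 E2 to 1 DMSO library) against coding length in bases (x axis, log scale) for 76 members coloured by complex. Black segments are the medians of all genes under 600, from 600 to under 1200 and of 1200 or more bases. Those medians are -0.54, -0.23 and 0.18, and the members' medians (-0.70, -0.55 and -0.15) lie below each of them.

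After each library's trend over GC content and transcript length was removed, the members' median parental E2 change of -0.28 stood against -0.01 for all genes. Parental DMSO was then the highest library for 55 members (71.4%), against 28.4% of all genes: 26 of 37 in complex I, 1 of 4 in complex II, 8 of 8 in complex III, 5 of 10 in complex IV and 15 of 18 in complex V. The correction used transcript length, whose rho with the parental E2 change was 0.27 over all genes, against 0.43 for coding length. Coding length itself was not corrected for. What produced the length trend was not tested.

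Members with an ETS match lay close to those without. The 9 members with an ETS match had a median parental E2 change of -0.67 and the 54 kept members without one -0.65. In DMSO the ETS group stood at -0.51 (clone 1) and -0.84 (clone 2) against the parental line, and the others at -0.50 and -0.81. The 13 members with an NRF1 match had a median parental E2 change of -0.58, against -0.66 for the 50 without. The 8 with the estrogen-related receptor core were at -0.52, with 1 at least 1.5-fold lower, against -0.69 and 37 of 55 for those without. SDHD and COX5B, the pair with both an ETS and an NRF1 match printed above, were at -0.55 and -0.87, and COX6A1 was at -1.08.

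Other genes of the pathway were read as lists. Of 10 genes tied to the complexes but outside the name rule, not all of them subunits, 9 were kept. All 9 were lower with E2 in the parental line (median -0.58) and none was lower in clone 2 (median 0.39). In the paired interaction test 4 of the 9 passed, all higher in the clones, where 8.9% of all genes did: NDUFAB1, COX7A2L, USMG5 and C14orf2. Of 46 assembly factors kept, 40 were lower with E2 in the parental line (median -0.38), 16 of them at least 1.5-fold (background 18.8%), and the medians were -0.06 in clone 1 and 0.20 in clone 2. In the paired test 20 of the 46 passed, all higher in the clones, among them SDHAF3 (1.10, SE 0.22) and TMEM126B (0.96, SE 0.23). The median parental E2 change was -0.25 for 14 citrate cycle genes, of which 1 (SUCLG1) passed the paired test, near the 8.9% of all genes. That paired test leaves 1 residual degree of freedom. Its calls for these lists with the GC content and length trends removed are not given here.

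The 13 regulators of the pathway had a median parental E2 change of -0.07 and went different ways. In the parental line 7 of 13 were lower with E2, PPARGC1A (-0.87), TFB1M (-0.75), TFAM (-0.47), GABPB1 (-0.45), GABPA (-0.38), TFB2M (-0.36) and YY1 (-0.07), and 6 of the 13 were highest in parental DMSO. In edgeR's quasi-likelihood test over all lines, 2 of the 13 rose with E2, where 1.13% of all genes were called in either direction. PPARGC1B, a coactivator of mitochondrial gene expression, was measured at 11.5 and 29.8 CPM in clone 1 (DMSO and E2), 13.1 and 37.6 CPM in clone 2, and 7.70 and 38.4 CPM in the parental line, a log2 change of 1.74 (SE 0.22, adjusted p = 0.0211) and higher in 3 of 3 lines. POLRMT, the mitochondrial RNA polymerase, was measured at 42.4 and 62.1, 39.3 and 65.7, and 37.5 and 62.8 CPM, a log2 change of 0.68 (SE 0.11, adjusted p = 0.0451). In the paired interaction test PPARGC1B and PPRC1, its relative, had a lower E2 change in the clones (-0.87 with SE 0.23 and -0.71 with SE 0.24). TFB1M and TFB2M had a higher one (0.75 with SE 0.25 and 0.60 with SE 0.22). Of all 15611 genes, that test called 1080 lower and 1390 higher. Its calls for the regulators with the GC content and length trends removed are not given here.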

How the data were processed

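The deposited table of raw counts was used. It holds whole-number counts per gene symbol for 6 RNA-seq libraries, and the authors made it with HISAT2, SAMtools and Subread on hg19, per the submitters' processing notes, which also name DESeq2 and give no versions. Strand use in counting and the annotation are not given in the sources used here. The deposited normalized table was not used. Column names that write DMOS and ER were read as DMSO and E2.

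The tests were run with edgeR 4.0.16 under R 4.3.3 (filterByExpr on the 4 groups, TMM, quasi-likelihood tests, Benjamini-Hochberg over all genes kept, threshold 0.05). Standard errors are the log2 coefficient over the root of F. Single-library log2 ratios used a prior count of 2. Alternatives were DESeq2 1.42.0, limma-voom (limma 3.58.1), other scalings, filters, prior counts and fold limits, clones left out, and line as a block. Added after seeing the data were a lowess correction (span 0.3) for GC content and transcript length (GENCODE v29, matched by symbol for 24518 of 26364 genes), the blocked alternatives, and leaving out the parental DMSO library. Libraries were paired by the line that the labels name: the clone 1 minus clone 2 difference correlated between treatments (r = 0.626 over 15611 genes, 0.610 over 77 members). For the knockout effect the block was a random effect (limma, consensus correlation 0.113).

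Members and lists were chosen with earlier results of these data known. Named genes were the core subunits, the members with the highest and lowest fitted E2 and knockout differences in each complex (mean of at least 2 CPM), members called in the unblocked tests, and tissue-restricted or misnamed members. Others were chosen after their values were seen. The values of 1 member are not reported here.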

Additional observations from a re-analysis of the deposited data

Results flagged for a closer look

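With line as a block, a difference in E2 change between the clones and the parental line was called in 48 of 77 members. All 48 had a higher change in the clones, where 8.9% of all genes were called in that direction. This was a test of the difference itself, by edgeR's quasi-likelihood test (Benjamini-Hochberg adjusted), and without the block 0 members passed. The parental side of each of these differences is 1 pair of libraries. The paired fit leaves 1 degree of freedom, and the prior that edgeR estimated was infinite. With GC content and transcript length trends removed, the paired fit called 17 members, where 4.29% of genes were called higher. Of these, 15 were among the 48.

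By direction alone, 17 members were lower with E2 in the parental line and higher in both clones, against 6.51% of all genes. For this count the difference was not tested, and some of the 17 are also among the 48. They include NDUFA11, SDHB, SDHC, SDHD, UQCRH, COX7B and ATP5B.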

How the results depend on the processing

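Median-ratio scaling, other filters and other prior counts kept every median over all members in its direction, except the near-zero clone 1 difference in E2 (0.0050, -0.0044 with median-ratio scaling and -0.0067 with total counts). Calls moved as follows. The E2 effect gave 0 to 14 members over fits leaving out a clone or the parental DMSO library. The knockout fit without clone 2 has 1 line per genotype, and there the log2 difference of SDHB became -1.25. The interaction gave 2 members in DESeq2 and, with the replicate block, 48 in edgeR (8.9% of all genes called in that direction), 45 in limma-voom (7.19%) and 35 in DESeq2 (3.67%), all 35 and 45 among the 48; with GC content and transcript length trends removed it gave 17. The clones alone gave 1 with the replicate block, and the paired fits changed no other call. Members at least 1.5-fold lower in the parental line (46) were 28 with total-count scaling, 12 with the trends removed and 3 at 2-fold. Clone 1 against parental in DMSO (26) gave 8 with total counts, 8 with the trends removed, 61 at a lower fold limit and 1 at 2-fold. Clone 2 (61) gave 18 with the trends removed and 9 at 2-fold. With the trends removed, the medians of clone 1 and clone 2 became -0.27 and -0.36. The share of all genes at 2-fold and at the lower fold limit is not given here, so those counts have no background. The cause was not tested beyond these constructions. The interaction without a clone could not be fitted, since 4 libraries leave no residual degree of freedom. The parental line has 1 library per treatment, and intervals across genes would not replace a replicate.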
